A study of Homo sapiens with 2 samples.

Results

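Stretches of the genome in which accessible sites of primed human embryonic stem cells followed each other with no accessible site of the compared cell state between them were examined. The members are regions that lie in runs: peaks of each library were merged into regions, the regions of both libraries were merged into a union sorted by position, and a run was kept where 6 or more consecutive union regions were primed-only, that is, overlapped by no peak of the other library. There were 280 such runs on 23 chromosomes. They held 1902 regions of 336224 in the union, or 2.11% (2.02 to 2.20) of the 90203 primed-only regions. By the same rule primed-only regions made up 26.8% of the union, and since that contrast chose the members, nothing is read from it. Each interval given here covers counting error at 95%.

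The study used ATAC-seq, which tags open DNA with a transposase that cuts and adds adapters, on WIBR3, an established human embryonic stem cell line. No genotype change is given for either group, and 50000 living cells were taken for each library. The Primed library came from cells in the conventional primed state of embryonic stem cells. The hTBLC library came from totipotent blastomere-like cells, which the study obtained by repressing the spliceosome, with no agent, dose or time in the labels. Each group was 1 library from 1 line, so there was no replicate spread, no test between the states was possible, and what follows describes these libraries. The authors' lists held 295753 primed and 299673 hTBLC peaks, and the background level behind the calls was 1.79 and 1.96. At the ends of genes that mark pluripotent cells, the primed library was open at 11 of 14 core genes and the hTBLC library at 13, SOX2 and NANOG among them in both. For POU5F1, a gene end was open in the primed list only, and for LEFTY2, ZFP42 and NODAL in the hTBLC list only. Genes of the 8-cell and totipotency list had an open end for 7 of 23 in each library, so the hTBLC label was not distinguished by this count. The genes differed in part: ZSCAN4 and H3Y1 had an open end in the primed list only, and ARGFX and TRIM49 in the hTBLC list only.

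Open chromatin in a differentiated or stem cell lies at promoters, where transcription starts, and at distal elements such as enhancers, insulators and silencers, many of which sit in introns of the gene they act on or of its neighbours. Elements that act on a single developmental gene are often spread over a long domain around it. Clusters of gene copies, such as the clustered protocadherins that give neurons distinct surface identities, carry a promoter for each copy and choose among them with the help of the architectural protein CTCF.

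Promoters were rare among the members, and 1 run stood on a row of them. The run from PCDHB3 to PCDHB9 on chromosome 5, chr5:141100349-141187231, contained 9 regions, of which 7 lay within 1 kb of a gene end. Its regions overlapped the promoter windows, 250 bases before to 50 after the gene start, of PCDHB3, PCDHB5, PCDHB7, PCDHB16 and PCDHB9, which encode beta protocadherins. The 250 bases before each of these starts, from RefSeq on GRCh38.p14, all on the plus strand, are shown because regions of this run overlap them and they share a sequence. Each region covered between 168 and 248 of the 300 bases of its window, and the other 4 regions of the run touched no window in the table. Capitals mark GGTGGCGCTG, the longest string common to all 5 windows.
PCDHB3: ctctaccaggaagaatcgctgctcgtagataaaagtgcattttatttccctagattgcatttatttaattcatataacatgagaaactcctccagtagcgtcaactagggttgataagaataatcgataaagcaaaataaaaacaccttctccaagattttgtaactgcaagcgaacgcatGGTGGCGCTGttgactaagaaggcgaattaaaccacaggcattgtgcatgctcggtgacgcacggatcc
PCDHB5: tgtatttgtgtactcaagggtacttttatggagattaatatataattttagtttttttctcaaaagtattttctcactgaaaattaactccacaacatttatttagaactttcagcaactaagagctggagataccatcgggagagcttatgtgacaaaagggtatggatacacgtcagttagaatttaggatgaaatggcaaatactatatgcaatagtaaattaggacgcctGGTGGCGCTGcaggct
PCDHB7: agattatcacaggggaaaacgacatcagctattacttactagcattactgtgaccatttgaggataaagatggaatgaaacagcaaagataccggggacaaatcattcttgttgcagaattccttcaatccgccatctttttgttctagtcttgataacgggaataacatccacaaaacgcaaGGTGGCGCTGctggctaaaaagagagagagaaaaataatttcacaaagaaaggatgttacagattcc
PCDHB16: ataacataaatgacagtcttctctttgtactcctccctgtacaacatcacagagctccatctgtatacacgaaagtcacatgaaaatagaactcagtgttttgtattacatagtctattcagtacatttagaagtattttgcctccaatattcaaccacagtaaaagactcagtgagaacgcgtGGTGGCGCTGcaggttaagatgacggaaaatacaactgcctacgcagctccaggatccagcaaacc
PCDHB9: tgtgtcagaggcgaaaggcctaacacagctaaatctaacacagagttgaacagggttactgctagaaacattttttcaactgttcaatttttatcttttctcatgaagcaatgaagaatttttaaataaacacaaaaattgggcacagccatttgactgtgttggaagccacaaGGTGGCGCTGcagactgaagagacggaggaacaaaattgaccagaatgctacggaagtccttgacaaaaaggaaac

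The printed stretches are chr5:141100223-141100472 for PCDHB3, chr5:141134956-141135205 for PCDHB5, chr5:141172394-141172643 for PCDHB7, chr5:141182137-141182386 for PCDHB16 and chr5:141186911-141187160 for PCDHB9. The string began 69, 16, 67, 66 and 76 bp before the start of PCDHB3, PCDHB5, PCDHB7, PCDHB16 and PCDHB9. Read on both strands, it occurred in 78 of 27195 promoter windows, the most 5′ listed for each gene (0.287%), and in 12 of the 14 windows of beta protocadherin genes. The windows printed above defined the string, so their matches within both counts were fixed in advance. It contains CGCT, the core of a sequence element known from clustered protocadherin promoters. CGCT alone was in 69.4% of all windows and in all 14 beta protocadherin windows. A longer string that contains CGCT cannot be more frequent than CGCT, so these shares do not measure specificity. TATAAA was in 12.0% of all windows and in 1 of these 14. The beta protocadherin windows had a median of 40.8% G and C, against 62.7% over protein-coding promoters. A match is a description of the letters and not of a bound factor.

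Of the promoters outside that cluster that a run touched, that of AKR7A3 is shown as the strongest, with no part capitalised. AKR7A3 encodes an aldo-keto reductase and lies on the minus strand, at chr1:19288771-19289020.
AKR7A3: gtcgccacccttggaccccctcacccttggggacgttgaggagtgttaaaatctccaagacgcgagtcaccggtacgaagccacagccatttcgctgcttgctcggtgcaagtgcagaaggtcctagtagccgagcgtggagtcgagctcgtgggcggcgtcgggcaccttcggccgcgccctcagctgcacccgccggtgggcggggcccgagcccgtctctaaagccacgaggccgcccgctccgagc

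The AKR7A3 window was 68% G and C with 33 CpG, unlike the beta protocadherin windows. The region on the AKR7A3 promoter had a pileup, the number of reads or fragments stacked at the summit, of 48 (35.4 to 63.6). Other promoters touched were those of the long non-coding LOC105378768 (pileup 13) and of LOC124906280 (17), ATF5 (16), ANKRD24 (11) and GPR176 (7), some of them at a further start of the gene.

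The runs were mostly just above the minimum. Of the 280, 165 had 6 regions, 68 had 7, 27 had 8, 8 had 9 and 12 had 10 or more, and the longest had 23. Stretches of exactly 5 regions, which the rule leaves out, numbered 420. Values on either side of that limit were alike: regions in runs of exactly 6 had a median pileup of 11 and a median fold enrichment of 3.96, and regions in stretches of exactly 5 had 11 and 3.94. Fold enrichment is the authors' own value for each peak, its summit over the local background. The mirror-image rule gave 493 runs of hTBLC-only regions with 3380 regions, the longest of 41 on chromosome X, so long stretches were more frequent in that direction in the full lists, where hTBLC-only regions were 29.2% of the union. With peaks of a −log10 q, the authors' adjusted significance, of 5 or more in both lists the order turned, to 144 primed-only and 89 hTBLC-only runs. The shares of the union turned as well, to 28.1% primed-only and 23.7% hTBLC-only regions.

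**Figure D1:**
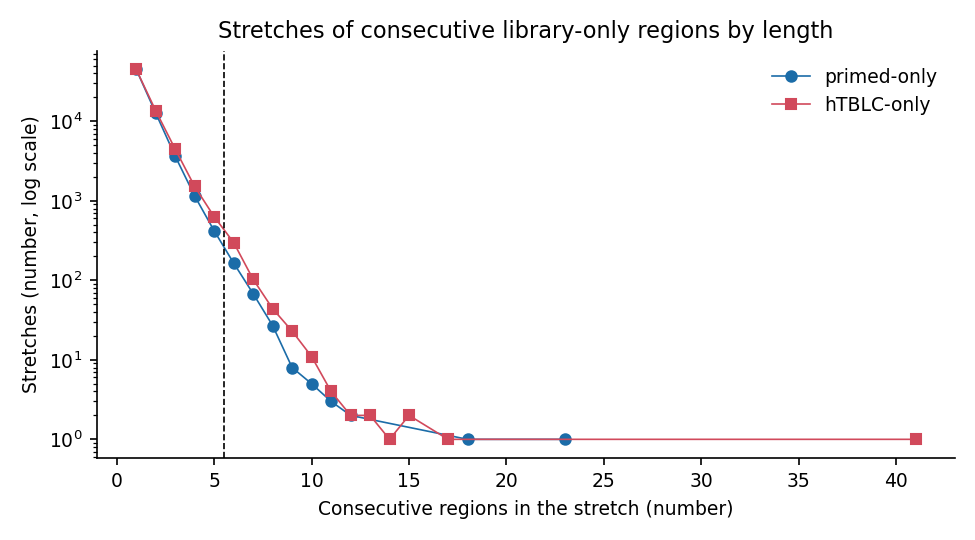
Number of stretches (log scale) by the number of consecutive regions they hold, for primed-only (circles) and hTBLC-only (squares) regions; the dashed line marks the minimum of 6. Primed-only stretches numbered 45157 at length 1 and 165 at length 6, and single stretches of 18 and 23 stand apart at the right; the hTBLC-only series ends at 41.

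The members were weak peaks. Their median pileup was 11 (quartiles 9 and 16), against 12 (9 and 17) for other primed-only regions and 25 (14 and 47) for primed regions shared with hTBLC. The median width was 263 bp, against 256 bp for other primed-only regions. A −log10 q of 10 or more was reached by 277 members (14.6%), against 14.9% of other primed-only regions, and a −log10 q of 5 or more by 765 (40.2%), against 41.9%. The members thus differed little from other primed-only regions in strength, and most were close to the limit of detection. Of the runs, 167 held a region with a −log10 q of 10 or more and 11 held none of 5 or more. The primed list reaches lower than the hTBLC list, with a lowest −log10 p of 2.0 against 2.83, and 104 members (5.47%) lay under the hTBLC limit, against 4.41% of other primed-only regions. A region missing from the hTBLC list is not shown to be closed there, and in these bulk libraries fewer cells with an open site and a less open site per cell cannot be told apart. In addition, 252 ranks of the primed and 327 of the hTBLC list have no line, and a region at such a rank counts as absent. The last rank was 296005 in the primed list and exactly 300000 in the hTBLC list. Whether the hTBLC list was cut at a set number of peaks was not tested.

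Runs covered 13.7 Mb in all. Their spans had a median of 38.1 kb (quartiles 26.0 and 60.9), and the shortest was 8.32 kb, near DNAAF6 on chromosome X. Runs of exactly 6 regions had a median span of 34.3 kb, and all 56025 consecutive blocks of 6 union regions had 34.1 kb. Gaps between neighbouring regions had a median of 4284 bp inside runs and 4652 bp over the union. Members were therefore spaced like other accessible regions, neither packed together nor thinned out. Runs of hTBLC-only regions had a median span of 42.7 kb, but reached 5885 kb and covered 44.7 Mb. The largest gap between neighbouring regions inside them was 3.88e+06 bp, and such gaps count in the spans, the covered length and the genes per Mb.

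Most members lay inside genes. Of the 1902, 1356 (71.3%, 69.2 to 73.3) had their summit in the body of a protein-coding gene, against 52.0% of other primed-only regions, 47.0% of shared regions and 27.0% (25.5 to 28.5) of regions in hTBLC-only runs. Regions between genes were 19.8% of the members, 35.2% of other primed-only regions and 56.8% of regions in hTBLC-only runs. The bodies of protein-coding genes took up 64.4% of the bases in the runs, 14.7% in hTBLC-only runs and 42.6% in blocks of 6 union regions. The directions thus differed by far more than the counting intervals, but neighbouring members share a gene and are not independent. When both lists were restricted to a −log10 q of 5 or more, 61.3% (58.2 to 64.3) of 969 members of 144 runs lay in gene bodies, against 51.4% of all primed-only regions and 29.0% for the 89 hTBLC-only runs. Primed-only regions were then 28.1% of the union. With the 200000 strongest peaks of each list the share was 57.5% (54.0 to 61.0), so the excess over other primed-only regions was smaller among stronger peaks while the order of the directions stayed.

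**Figure D2:**
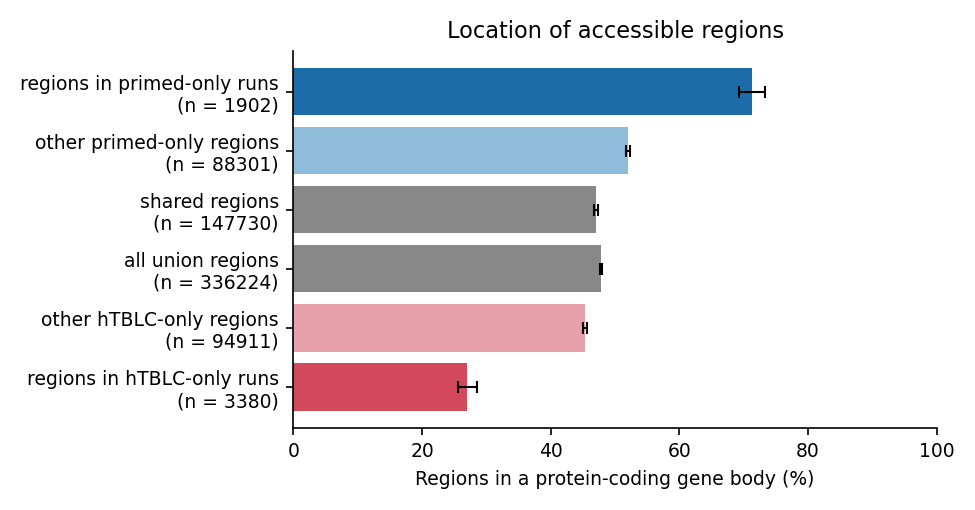
Percent of regions whose summit lies in a protein-coding gene body, by set, with Wilson 95% intervals as error bars and the number of regions in each label. Members of primed-only runs stand highest at 71.3% and regions of hTBLC-only runs lowest at 27.0%, with the other sets between 45.3% and 52.0%.

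Gene ends were scarce. At protein-coding gene ends, within 1 kb of the start or the stop of the annotated body, lay 40 members (2.10%, 1.55 to 2.85), against 3.77% of other primed-only regions and 11.2% of shared regions. Within 1 kb of a start listed for a protein-coding gene lay 22 members (1.16%, 0.77 to 1.75), against 1.94% of other primed-only regions and 9.35% of shared regions. The genes overlapping runs had 370 listed starts, of which 31 fell between the first and last region of a run; 14 of these had a primed region alone within 500 bp, 2 had a region of each library and 15 had none. Beside the beta protocadherin run, those with 2 regions at gene ends were at CLEC4G, KLHL38, IL4I1 to ATF5, PPM1E to TRIM37, MSANTD3, AKR7A3 to AKR7A2, CACNA1H to TPSD1, and HOXC13.

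A typical run lay within a single long gene. This was so for 175 of 280 runs (62.5%), against 22.7% of hTBLC-only runs and 31.9% of blocks of 6 union regions. No protein-coding gene was touched by 60 runs (21.4%), against 64.7% and 37.3%, and 23 runs touched 2 or more. In all, 252 protein-coding genes overlapped a run, or 18.4 per Mb; 252 also overlapped the hTBLC-only runs, at 5.64 per Mb of their greater length. Counted by gene midpoints, which do not favour short intervals in long genes, the density was 7.90 per Mb in primed-only runs, 2.66 in hTBLC-only runs, 6.75 in blocks of 6 union regions and 17.6 in runs of shared regions. By that count the runs were about as gene-dense as the rest of the accessible genome, and the hTBLC-only runs were gene-poor. The genes with a run were long, with a median of 138 kb against 24.2 kb over all protein-coding genes, and 59.9% were over 100 kb against 16.8%. Long genes hold more regions and so have more places for a run, and the part of length in the gene share was not tested.

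Within their genes, runs did not gather at the start. Of 135 runs inside a single gene of known strand, 52 had their middle in the first of 3 equal parts of the gene, 58 in the middle part and 25 in the last. Their distance from the 5′ end of the gene had a median of 52.7 kb (quartiles 16.6 and 135), and 21 were within 10 kb. The last part thus held the fewest.

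The starts of these genes were mostly open in both states. Here the start is the most 5′ of those listed for the gene. Of 199 genes with known strand, 157 (78.9%) had a region of each library within 500 bp of the start, 16 (8.04%) of the primed library alone, 5 (2.51%) of the hTBLC library alone and 21 (10.6%) of neither. Over all protein-coding genes the shares were 74.97%, 3.13%, 2.35% and 19.5%. Most of the 16 starts with a primed region alone lie inside a run, where no hTBLC region can lie. Their share was thus set in part by the rule. Of the 16 with a primed region alone, 6 were beta protocadherins, and the long genes among the remainder were XYLT1, DLGAP1, NFIB and the readthrough gene MSANTD3-TMEFF1. This state is that of the most 5′ listed start and not of the whole gene. NFIB had further listed starts open in both libraries, and others open in the primed library alone or in neither. The DLGAP1 start used lies inside the annotated body, with the run upstream of it. At 155 starts the ratio of hTBLC to primed pileup, scaled by the background levels, had a median log2 of 0.03 (quartiles −0.26 and 0.26), against 0.03 (−0.29 and 0.30) over 11817 genes. Its interval lay below 1 for 23 genes (14.8%) and above 1 for 20 (12.9%), against 13.7% and 17.1% over all genes. The median start ratio of genes with a run was thus close to that of all genes, with a similar spread.

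MAP7, which encodes a microtubule-associated protein, had the lowest ratio, with a start pileup of 208 in primed and of 51 in hTBLC (ratio 0.22, 0.16 to 0.31). ELAVL4, a neuronal RNA-binding protein, had 75 and 24 (0.29, 0.18 to 0.47). CSMD2, a large transmembrane protein of the nervous system, had 72 and 34 (0.43, 0.28 to 0.66). FGFR2, a receptor for fibroblast growth factors, had 155 and 100 (0.59, 0.45 to 0.76). At the other end was TCF20, a transcriptional coregulator, at 2.26 (1.30 to 4.08). These values hold for the most 5′ listed start only, which for TCF20 lies inside the annotated body. At a further TCF20 start the order was reversed, at 0.58 (0.36 to 0.91). Further MAP7 starts read 114 against 102 and 10 against 36, primed first, so that gene too had starts in both directions. Further starts of ELAVL4 and FGFR2 that had a ratio lay below 1. The start ratios of these genes lay on both sides of 1, while all 5 genes overlapped a run of primed-only regions.

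In the bodies of the 252 genes, outside every run, 2026 regions were primed-only, 1711 hTBLC-only and 2797 shared. The rule shaped these counts in part, since regions in runs of either direction were left out. The regions that bound a primed-only run, which are never primed-only, could still be counted. Primed-only regions were 54.2% (52.6 to 55.8) of those found in a single library, against 51.6% over the bodies of all protein-coding genes. The interval counts neighbouring regions of a gene as independent, which they are not, and the genes were chosen by the same contrast, so this is a description.

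The shared regions next to runs carried somewhat less hTBLC signal. The nearest shared regions on the 2 sides, 555 in all, had a median log2 ratio of −0.25 (quartiles −0.79 and 0.20), and 62.7% were below 0. Over all 147730 shared regions the median was −0.13, with 56.4% below 0, and beside hTBLC-only runs it was 0.08. Without scaling, the median was −0.12 beside runs and 0 over all shared regions. Over the 1720 shared regions within 50 kb of a run the scaled median was −0.26. Of the runs, 126 had shared regions as both neighbours and 31 had hTBLC-only regions as both. Since runs were chosen for missing hTBLC peaks, this is a description of the same contrast.

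Runs at some developmental genes differed in strength. A −log10 q of 5 or more was reached by 1 of 8 regions near DLX6 and by 3 of 6 beside HOXC13. Near DLX6, a homeobox gene of the forebrain and face, 8 regions over 130 kb had pileups of 6, 7, 11, 8, 10, 9, 9 and 72. That run overlapped the non-coding gene DLX6-AS1. Beside HOXC13, 6 regions over 135 kb had pileups of 6, 16, 13, 11, 33 and 10, and a further run overlapped HOXC4 and HOXC5. At CUX2, a homeobox gene of upper cortical layers, 8 regions included 6 with a −log10 q of 5 or more.

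The SNRPN run lay over an imprinted locus. SNRPN and SNURF share a transcript whose long non-coding extension, SNHG14, hosts the small nucleolar RNAs whose loss is linked to Prader-Willi syndrome. The run, chr15:24967433-25134434, overlapped 34 small nucleolar RNA genes, 30 of them SNORD116 copies, and IPW, PWAR5 and PWAR6. Its 18 regions had pileups of 9, 9, 7, 8, 14, 9, 10, 8, 9, 15, 10, 23, 10, 21, 9, 10, 9 and 12. The median was 9.5, the highest regions had 23 and 21, and 3 reached a −log10 q of 5 or more. The run was lost, with fewer than 6 consecutive regions, under all 3 stricter peak limits: a −log10 q of 5 or more in both lists, the same limit on the primed list alone, and the 200000 strongest peaks of each list. SNORD116 copies are near-identical, so reads there may be shared between copies. The 4 starts listed for SNRPN lie left of the run and were open in both libraries. From left to right their primed and hTBLC pileups were 57 and 76 (ratio 1.22, 0.85 to 1.75), 16 and 52 (2.97, 1.67 to 5.57), 25 and 28 (1.02, 0.57 to 1.83) and 34 and 36 (0.97, 0.59 to 1.59), the last being the shared region next to the run. The start of 16 and 52 was thus above 1 beyond counting error, whereas the shared region right of the run was below it, at 0.54 (0.31 to 0.92).

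**Figure D3:**
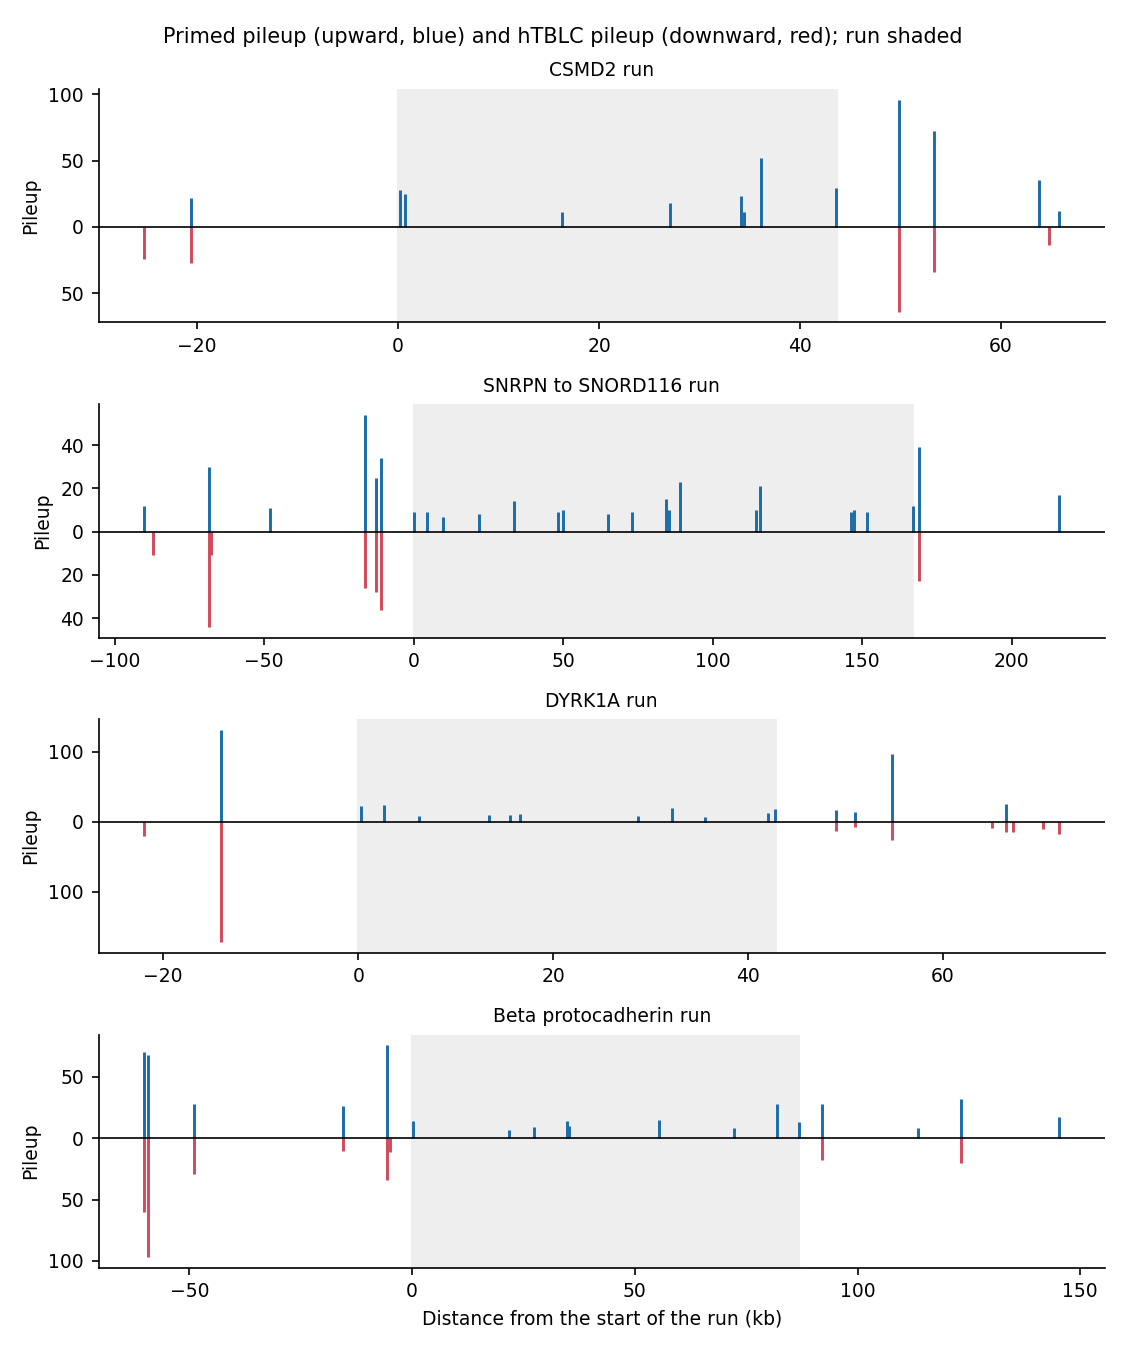
Pileup of primed (upward) and hTBLC (downward) regions by distance in kb from the start of the run, which is shaded, at 4 runs. No hTBLC line falls inside a shaded stretch by construction; the CSMD2 run reaches 52 among 8 regions over 43.7 kb, the SNRPN run stays between 7 and 23, the DYRK1A run between 7 and 24, and the beta protocadherin run between 7 and 28.

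In the beta protocadherin run the pileups were 14, 7, 9, 14, 10, 15, 8, 28 and 13. This run was likewise lost under all 3 stricter peak limits. Over the 14 promoter windows of the cluster in the table, 4 held shared regions, with primed and hTBLC pileups of 28 and 29 at PCDHB1, 76 and 34 at PCDHB2, 28 and 18 at PCDHB10, and 32 and 20 at PCDHB14. Primed-only regions were found at the 5 windows printed above and, outside the run, at PCDHB13 (8) and PCDHB15 (17). PCDHB4, PCDHB8 and PCDHB12 had none in the window. The scaled ratio at PCDHB2, the shared region left of the run, was 0.41 (0.26 to 0.62), and that at PCDHB10, to its right, was 0.59 (0.31 to 1.10). These genes are similar in sequence, so reads could be shared between copies, and the values are uncertain to that extent. No hTBLC-only region lay on any of the 14 windows. Of 65 protocadherin genes, 8 overlapped a run (12.3%), all in this run, against 1.26% of all protein-coding genes.

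Several genes of chromatin and transcription overlapped runs; the gene table does not separate introns from exons. They are grouped here by known role after the genes were seen. KDM6A, an X-linked demethylase of histone H3 that opposes Polycomb silencing, held 24 primed-only, 5 hTBLC-only and 6 shared regions, with 16 of the primed-only in 2 runs. The longer, chr X from 45040193 to 45115991, had pileups of 12, 7, 8, 7, 9, 17, 9, 9, 16, 6 and 12. The KDM6A start was open in both, at 159 in primed and 181 in hTBLC (ratio 1.04, 0.84 to 1.29). KANSL1, a subunit of a histone acetyltransferase complex, held 21 primed-only, 3 hTBLC-only and 8 shared regions, and its start ratio was 0.71 (0.55 to 0.90). TBL1XR1, part of the NCoR corepressor complex, held 21, 5 and 9, with a start ratio of 1.57 (1.08 to 2.31). The start ratios lay on opposite sides of 1 although both bodies held many primed-only regions. Both genes were chosen for a run, which by itself adds primed-only regions to the body. Further listed starts of KANSL1 were at 0.81 (0.67 to 0.99) and at 1.30 (0.82 to 2.10).

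HDAC4, a class II histone deacetylase, held 30, 24 and 22 regions, of which 9 formed a run with pileups of 34, 27, 12, 14, 8, 16, 10, 14 and 13. CREBBP, a histone acetyltransferase and coactivator, held 11 primed-only regions and 8 of them in a run. ARID2, a subunit of a SWI/SNF remodelling complex, held 8 primed-only regions, no hTBLC-only and 4 shared. Runs also overlapped ARID1B and SMARCA4 of the same family of remodellers, EPC2 and KAT7 of acetyltransferase complexes, the deacetylase SIRT1 and the TFIID subunit TAF4. KAT7 and SIRT1 held 1 region of their run each, and 5 regions of the SIRT1 run lay in HERC4.

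Genes of RNA binding and processing formed a further group, likewise chosen after the genes were seen. SF3B3, a subunit of the SF3b complex of the spliceosome, held 7 primed-only regions, all in a run of 50.6 kb with pileups from 7 to 17, no hTBLC-only and 2 shared. CNOT6, a deadenylase subunit, held 6 primed-only, no hTBLC-only and 1 shared region. TNRC6B, which silences microRNA targets, held 26, 7 and 9, with 2 whole runs, and the longer of these had pileups of 20, 45, 12, 12, 12, 15, 13, 10, 10 and 12. Its paralog TNRC6A held 9, 6 and 6. ELAVL2, a neuronal RNA-binding protein, held 21, 2 and 11, with 2 whole runs and part of another, in which 18 regions lay. Its start was somewhat more open in hTBLC, at 163 in primed and 231 in hTBLC (ratio 1.29, 1.05 to 1.59). In each body named so far in this group primed-only regions outnumbered hTBLC-only regions, which the choice of genes with a run favours. CELF2, another RNA-binding protein gene with a run, went the other way, with 32 primed-only and 40 hTBLC-only regions.

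Other named runs lay in genes of signalling, adhesion and protein turnover, again grouped after the genes were seen. PTPRG, a receptor tyrosine phosphatase, held 3 whole runs with 18 of its 77 primed-only regions, beside 23 hTBLC-only and 51 shared. NLGN4X, a synaptic adhesion protein, held 2 whole runs, as did ABLIM1, which binds actin, NEDD4L, a ubiquitin ligase, and CALN1, a calcium-binding protein. USP9X, an X-linked deubiquitinase, held 17 primed-only regions with 16 of them in 2 runs, beside 3 hTBLC-only and 7 shared. Some bodies thus had nearly all their primed-only regions in runs, and others, such as PTPRG, a minority.

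DYRK1A, a kinase on chromosome 21, had 11 regions over 42.9 kb with pileups of 22, 24, 8, 9, 10, 11, 8, 19, 7, 12 and 18. It was lost under all 3 stricter peak limits. The DYRK1A start had 131 in primed and 172 in hTBLC (ratio 1.20, 0.95 to 1.52), and its body held 15 primed-only, 6 hTBLC-only and 9 shared regions. A further 2 listed starts fell within the run and had no region of either library within 500 bp. RIF1, a regulator of replication timing, had 10 of its 11 primed-only regions in a run of 72.4 kb with pileups of 6, 8, 9, 8, 7, 14, 10, 9, 30 and 11, and a start ratio of 0.91 (0.71 to 1.16). FNBP1L, which couples membranes to actin, had all 10 of its primed-only regions in a run, beside 1 hTBLC-only and 2 shared, and a start ratio of 1.31 (0.97 to 1.76). In these 3 genes the interval of the start ratio included 1.

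COMMD10, an endosomal trafficking protein, held 13 primed-only, 1 hTBLC-only and 3 shared regions, with 9 in a run of pileups from 8 to 14. The next shared region to the right of that run, 69503 bp away, had pileups of 74 and 10 (ratio 0.12, 0.06 to 0.24). The COMMD10 start was at 78 and 70 (0.82, 0.58 to 1.15). Runs of 9 or 10 regions were also found in MAGI1, MID1, ADGRL3 and ARHGAP39 and over ALG11, UTP14C and NEK5, with medians of 8 to 10.

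The TERF1 run was the 1 at a core pluripotency marker. TERF1 encodes a telomere-binding protein abundant in pluripotent cells. The run began inside it and ended in SBSPON, at chr8:73015410-73073887, with pileups of 9, 9, 18, 13, 13, 13, 15, 21, 13, 18, 10 and 13. The 12 regions were even in height, and 7 reached a −log10 q of 5 or more. The shared region 6031 bp to its left had 259 in both libraries (scaled ratio 0.91, 0.77 to 1.09). The 7 marker lists of primed and naive pluripotency, the 8-cell stage, trophectoderm, endoderm, mesoderm and fibroblasts, had no gene with a run. The run over CLEC4G, CD209 and CLEC4M, lectins of immune and endothelial cells, held 12 regions over 70.9 kb with pileups of 9, 14, 10, 11, 34, 18, 31, 12, 10, 16, 10 and 12, and 2 of these lay at gene ends. In CLEC4G lay 3 of the regions, and none lay in CD209 or CLEC4M, which the run spans.

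**Figure D4:**
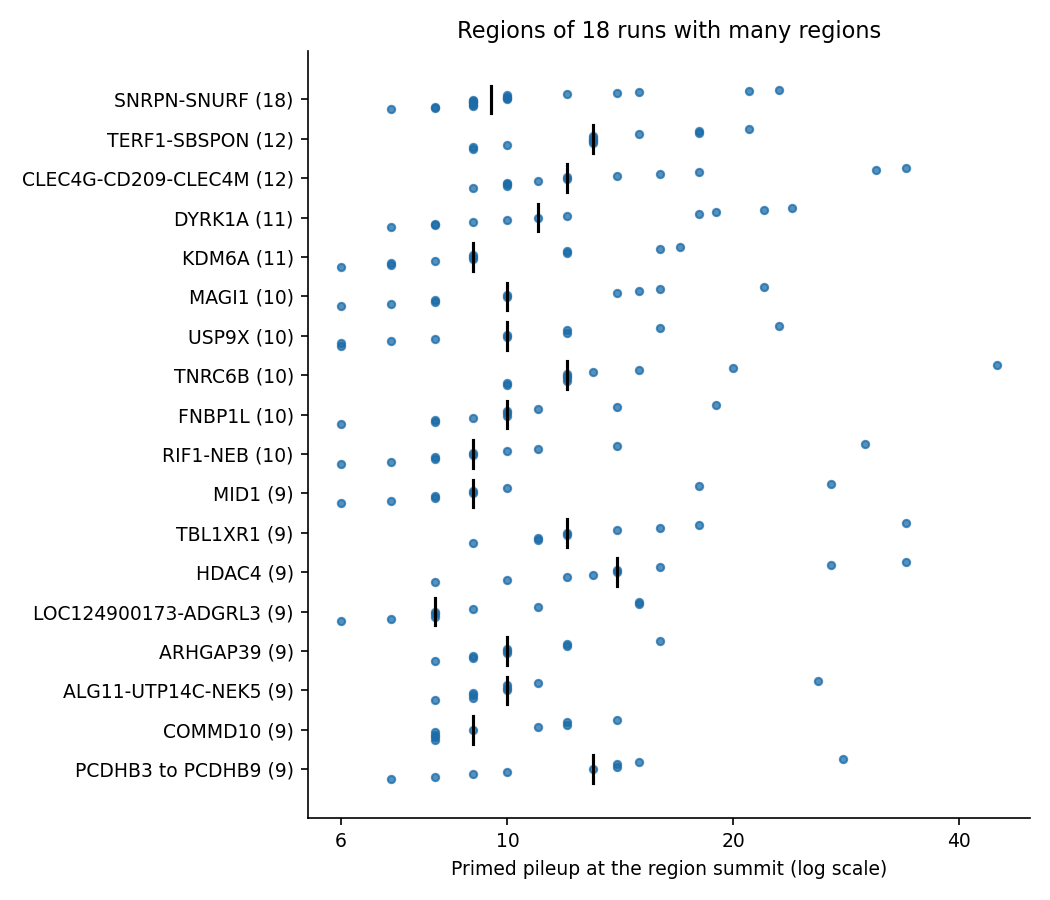
Primed pileup (log scale) of each region in 18 of the 20 runs with most regions, 1 row per run with the number of regions in brackets; points are regions and the vertical bar is the median of the run. The medians lie between 8 and 14, and the highest single region, at 45, is in the TNRC6B run.

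Most of the runs plotted did not hold at stricter peak limits. Of these 18 runs, those at TERF1 and CLEC4G kept 6 or more consecutive regions under all 3 stricter limits, those at TNRC6B, TBL1XR1 and KDM6A under 1 of them, and 13 under none.

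Some short or strong runs do not rank by number of regions. The shortest, near DNAAF6, had pileups of 19, 21, 7, 11, 10 and 14 within 8.32 kb, and the next were near ATP2B1 (8.74 kb) and near GPC4 (9.26 kb). By median fold enrichment the MRGPRX1 run was highest at 8.25, with pileups of 22, 39, 67, 22, 10 and 9, of which 1 region lay in MRGPRX1, a sensory receptor gene. CSMD2 followed at 8.07, with 28, 25, 11, 18, 23, 11, 52 and 29. In DNAH2, which encodes an axonemal dynein, all 6 primed-only regions formed the run, no hTBLC-only region was in the body, and the start ratio was 0.53 (0.38 to 0.72). In VPS41, of vesicle trafficking, a region of 170 stood among 11, 7, 21, 17 and 16. A −log10 q of 5 or more was reached by 6 of the 8 regions of CSMD2 and 4 of the 6 of VPS41.

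When primed peaks with a −log10 q of 5 or more were set against the full hTBLC list, where primed-only regions were 13.3% of the union, 8 runs remained. Among them were TERF1 to SBSPON and PRH1 to TAS2R30 with 7 each, and CSMD2, CUX2, CLEC4G to CLEC4M, the stretches near GUCY1A1 and near AUTS2 with 6 each. All 8 regions of the PRH1 run in the full lists lay in PRH1, a salivary protein gene, and none in the 4 bitter taste receptor genes it spans.

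Over all protein-coding genes 1.26% overlapped a run. Of 566 zinc finger genes with names in ZNF, ZSCAN, ZFP or ZKSCAN, 1 overlapped a run (ZNF398, 0.177%), and of 392 olfactory receptor genes none did, against 57 in hTBLC-only runs. Their median lengths were 23.5 kb and 2.94 kb, against 24.2 kb over all protein-coding genes. Of 40 HOX genes 3 overlapped a run. No gene named SOX, KLF, GATA, TFAP2, TBX, POU, LHX, PAX, KRT, KCN, WNT or FZD did; these are families of at most 149 genes. Long intergenic non-coding genes named LINC overlapped runs in 15 of 2308 cases (0.65%), against 0.61% of all non-coding genes and pseudogenes.

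Runs were spread over the chromosomes. Chromosomes 1 and 2 had 25 each, chromosome 7 had 24 and chromosome 21 had 2. As a share of primed-only regions, members were most frequent on chromosome 22 (3.42%), X (3.0%) and 7 (2.98%) and least on 4 (0.95%) and 20 (0.97%). Chromosome 4 had 7 primed-only and 45 hTBLC-only runs, and chromosome 22 had 7 and 1. The median log2 ratio of shared regions was lowest on chromosome 22, at −0.30, and highest on X, at −0.04, with −0.05 on 4 and −0.13 on 7 and 20, so the level and the share of members did not go together throughout.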

How the data were processed

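Peaks of 2 ATAC-seq libraries of WIBR3 cells, Primed and hTBLC, were analysed, 1 library per group as the sample titles give it. The submitters' processing notes name Bowtie2, Picard, MACS2 and hg38, with no version, and no source used here gives the calling threshold or the treatment of duplicates and of the transposase offset. Each library has its own deposited list. The fold ratio, the −log10 p-value and q-value and the peak positions are the authors' deposited values; the deposited score was not used. Total read numbers are unknown.

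The summit pileup and the background of a peak were recovered from its deposited fold, read as (pileup + 1)/(background + 1), and its −log10 p, read as a Poisson tail. The pileup came out whole for 99.999% of primed and 99.998% of hTBLC peaks, with a tolerance of 0.001. Ratios of hTBLC to primed pileups were divided by the relative depth of 1.09, the ratio of the background levels. On chromosomes 1 to 22 and X, peaks that overlapped or touched were joined, leaving out 16 peaks elsewhere per list, and a region was shared when it overlapped the other library by at least 1 bp. Genes came from the RefSeq table of GRCh38.p14, matched by hg38 coordinates; the strand was taken from the promoter table for 15812 of 19974 protein-coding genes. Gene bodies and ends (within 1 kb) were assigned by the summit, and the state of a gene's start by regions within 500 bp of its most 5′ listed start.

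Shares have Wilson 95% intervals, pileups exact Poisson and ratios exact binomial intervals, for counting error only. No test between states was made. Some genes and runs that the rule selects are not reported here. The members and lists were chosen with earlier results of these data known. The runs named were the 10 with most regions (of the 20 with most, 18 are described, some of them outside the rule), the shortest, the longest and those of highest median fold, 10 each, runs with 2 or more regions at gene ends, genes holding 2 or more whole runs, and markers overlapped by a run; genes grouped by role, other developmental genes, the start ratios singled out and the runs at the stricter level were chosen after their values were seen. Alternatives were other minimum lengths, peak thresholds, overlap rules, gap limits, gene end windows, gene midpoints, unscaled ratios and leaving out chromosome X. The steps recovered all planted runs in simulated lists. Python 3.11.15 with numpy 2.4.6, pandas 2.3.3, scipy 1.17.1 and matplotlib 3.10.9 was used.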

Additional observations from a re-analysis of the deposited data

How the results depend on the processing

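The numbers of runs depended strongly on the choices. Against 280 runs with 1902 regions, 2.11% of primed-only regions and a median span of 38.1 kb, a minimum of 5 regions gave 700 runs, 4002 regions, 4.44% and 30.05 kb, and a minimum of 8 gave 47, 436, 0.483% and 50.6 kb. A −log10 q of at least 5 in both lists gave 144 runs, 969 regions, 1.69% and 72.2 kb; the same limit on the list whose runs were counted, against the full other list, gave 8, 57, 0.151% and 78.9 kb; the top 200000 peaks gave 116, 765, 1.34% and 63.7 kb. A common −log10 p floor of 2.83 gave a share of 1.80%, and reciprocal overlap of at least 50% gave 1.98%. The hTBLC-only runs numbered 493, and 1125, 91, 89, 10 and 152 under the 5 first settings in that order, so their excess over primed-only runs turned at a −log10 q of at least 5 in both lists (144 against 89). Primed-only regions were then 28.1% of the union and hTBLC-only regions 23.7%. Of the 280 runs, 33 held 6 or more consecutive regions at that limit, 33 among the top 200000 peaks, 229 at the common floor and 246 when a peak within 500 bp counted as shared.

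Protein-coding genes per Mb were 18.4, and 12.0 at a −log10 q of at least 5 in both lists, 11.5 with that limit on the primed list alone, 11.9 with the top 200000 peaks and 7.90 by gene midpoints. The gene body share of 71.3% was 67.5% with a minimum of 5 regions, 61.3%, 47.4% and 57.5% under the same 3 peak limits. The value of 47.4% rests on 57 regions. The gene end share of 2.10% was 3.44% with a minimum of 8 regions, 0.999% with a window of 500 bp and 4.78% with 2500 bp. The median log2 ratio beside runs was −0.25, and −0.12 without scaling, against −0.13 and 0 over all shared regions. Left out after the data were seen, the 2 runs with most regions moved the gene body share to 72.6%. Of the 20 runs with most regions, those at TERF1 and CLEC4G were among those present under all 10 settings tried. No paired analysis was possible because each group has 1 library.

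Depth limits the members: their median pileup of 11 leaves wide counting intervals, and a weak hTBLC peak under its list's limit counts as absent.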
